A study of Mus musculus with 9 samples.

Results

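The genes described here are 10 factors that make or equip PIWI-interacting RNAs (piRNAs), namely Ddx4, Mov10l1, Asz1, Pld6, Pnldc1, Henmt1, Fkbp6, Exd1, Gtsf1 and Mael. They were taken by symbol from an expression table of 22337 genes, and all 10 were found and passed the filter on low counts. The table comes from RNA sequencing of 9 whole mouse testes at 3 weeks of age, 3 of each Piwil4 genotype. The wild-type group carries no changed allele, the Piwil4 WT/R264W group carries 1 knock-in allele that replaces an arginine of PIWIL4 by tryptophan, and the Piwil4 R264W/R264W group carries that allele on both chromosomes. The allele was made by CRISPR-Cas9 in C57BL/6 zygotes and is carried by every cell, and the labels name no treatment. The labels number the testes within a genotype without saying whether they came from separate mice or litters, so p-values measure the spread between these samples.

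piRNAs are small RNAs of germ cells that guide PIWI proteins to transposon transcripts and, in meiotic cells, to other RNAs. Long precursors are unwound and cut at the surface of mitochondria, loaded onto a PIWI protein, trimmed from the 3′ end and closed there by a methyl group, while granules next to the nucleus concentrate the helicases and tudor proteins that amplify them. In the mouse testis one set of piRNAs is made around birth and another, far more abundant set during the pachytene stage of meiosis, which the first wave of germ cells enters during the weeks after birth.

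Library totals lay between 17.964 and 24.279 M estimated counts. A count of 0 allows up to 3 counts, or 0.124 to 0.167 CPM (counts scaled to library size). The first wave of spermatogenesis had come to different points within each genotype. A round spermatid score, the mean log2 CPM of 16 genes of these haploid cells and of none of the 10 factors, had values of 6.20, 2.85 and 1.62 in the wild-type group. It stood at 5.25, 3.83 and 1.03 in the Piwil4 WT/R264W group and at 2.73, 3.98 and 6.03 in the Piwil4 R264W/R264W group. Transcripts of the protamine gene Prm2 and the transition protein gene Tnp1 were at 0 in Piwil4 WT/R264W 3 and in wild-type 3 respectively, the testes of lowest score, and reached 59.4 and 28.2 CPM in wild-type 1. Germ cell markers of every earlier stage were also present, with pachytene scores from 7.75 to 8.54 on the same scale, although Nanos2, a marker of undifferentiated spermatogonia, reached no more than 0.224 CPM. In a whole testis, fewer cells of a type and less RNA per cell cannot be told apart.

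All 10 genes are protein-coding and lie on 9 chromosomes in the GENCODE annotation of GRCm38. The precursor helicase gene Mov10l1 (ENSMUSG00000015365) spans chr15:88982909-89055152 on the plus strand, and Gtsf1 (ENSMUSG00000022487) is found at chr15:103402405-103430470 on the minus strand. Ddx4 (ENSMUSG00000021758) spans chr13:112598333-112652475, Asz1 (ENSMUSG00000010796) chr6:18050964-18109061, Pld6 (ENSMUSG00000043648) chr11:59783897-59787645 and Pnldc1 (ENSMUSG00000073460) chr17:12888729-12910230, all on the minus strand. Mael (ENSMUSG00000040629) spans chr1:166201201-166238747, Exd1 (ENSMUSG00000048647) chr2:119516505-119547627 and Fkbp6 (ENSMUSG00000040013) chr5:135291704-135350044 on the minus strand, and Henmt1 (ENSMUSG00000045662) chr3:108939873-108960774 on the plus strand. Henmt1 overlaps Gm9857 and Pnldc1 overlaps AL589878.1 on the other strand, and the sources used here do not say that counting used strand, so reads of these pairs cannot be told apart. Mov10l1 also holds the gene Gm23737 on its own strand.

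The promoters of 4 of the genes are shown because their transcript levels changed with the round spermatid score. Each runs 5′ to 3′ from 250 bases before to 50 bases after a transcription start of RefSeq on GRCm38.p6. Capitals mark the letters CACGTG of an E-box, which read the same on both strands, and the letters CAACNG or TAACNG of a MYB site on either strand. The windows are chr15:103430378-103430677 on the minus strand for Gtsf1, chr1:166238695-166238994 on the minus strand for Mael, chr15:88982744-88983043 on the plus strand for Mov10l1 and, for 1 of 2 listed starts of Fkbp6, chr5:135349995-135350294 on the minus strand.
Gtsf1: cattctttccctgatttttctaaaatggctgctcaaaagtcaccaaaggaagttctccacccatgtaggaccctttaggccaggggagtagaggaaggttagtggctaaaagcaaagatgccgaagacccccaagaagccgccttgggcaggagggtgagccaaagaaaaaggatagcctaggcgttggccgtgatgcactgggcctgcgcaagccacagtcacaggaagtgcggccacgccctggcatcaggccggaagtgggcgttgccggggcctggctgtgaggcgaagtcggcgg
Mael: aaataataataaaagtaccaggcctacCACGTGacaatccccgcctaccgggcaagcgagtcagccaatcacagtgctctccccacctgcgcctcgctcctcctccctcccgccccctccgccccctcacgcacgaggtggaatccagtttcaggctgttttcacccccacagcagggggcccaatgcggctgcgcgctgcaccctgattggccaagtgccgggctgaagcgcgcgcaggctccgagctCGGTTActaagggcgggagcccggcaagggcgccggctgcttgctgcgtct
Mov10l1: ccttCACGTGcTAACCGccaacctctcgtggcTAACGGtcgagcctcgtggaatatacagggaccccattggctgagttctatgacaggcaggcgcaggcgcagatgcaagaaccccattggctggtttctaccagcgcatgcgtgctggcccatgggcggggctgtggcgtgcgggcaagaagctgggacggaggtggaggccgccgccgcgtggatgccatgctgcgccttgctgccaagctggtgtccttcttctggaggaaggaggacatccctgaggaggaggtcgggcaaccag
Fkbp6: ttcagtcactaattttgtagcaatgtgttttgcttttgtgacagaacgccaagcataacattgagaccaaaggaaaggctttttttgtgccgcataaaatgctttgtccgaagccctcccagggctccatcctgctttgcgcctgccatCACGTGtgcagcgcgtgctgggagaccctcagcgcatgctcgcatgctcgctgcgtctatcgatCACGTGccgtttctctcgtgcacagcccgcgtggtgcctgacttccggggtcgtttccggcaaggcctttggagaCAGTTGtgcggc
Gtsf1 held none of these letters, while Mael held 1 E-box and 1 copy of the MYB letters, Mov10l1 held 1 E-box beside 2 copies of TAACNG, and Fkbp6 held 2 E-boxes and 1 copy of CAACNG.

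Promoters of 9 of the 10 genes were in the RefSeq table, which has no entry for Pnldc1. CACGTG was found in 5 of the 9 (Mov10l1, Mael, Ddx4, Fkbp6 and, at 1 of 2 listed starts, Pld6), against 8.09% of all 27025 genes with a promoter in that table. The MYB letters were no more frequent in the 9 than elsewhere. CAACNG stood in 2 of them against 38.3% of all genes, and TAACNG in 2 of them against 25.91%. Their shared core AACNG, which both contain, was found in 8 of 9 against 82.42%. Of the other letters searched on both strands, CCAAT was found in 5 of 9 against 41.06%, TGACG in 3 of 9 against 23.05%, GCGGGAA in 1 of 9 against 5.29% and TGACGTCA, which contains TGACG, in 0 of 9 against 2.03%. The letters were counted over every listed start of a gene, whereas GC and CpG were taken at its first listed start. There the 9 promoters had a median GC content of 65.0% (54.33% to 75.33%) against 52.67% over all genes. Their median observed-to-expected CpG ratio was 0.78 against 0.389. The shares over all genes were not matched for GC or CpG content, and CACGTG itself holds a CpG. A match in these letters describes the window and says nothing of binding.

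Levels of the 10 genes were compared per transcript length, as the FPKM values that the authors computed. Mael, which encodes a germ granule protein needed for transposon silencing, was the most abundant at 712 ± 54.2 FPKM (SD, n = 9 testes), followed by the germ cell helicase gene Ddx4 at 272 ± 9.59 FPKM and Gtsf1 at 140.0 ± 21.3 FPKM. Next came Fkbp6 at 64.2 ± 9.10 and Mov10l1 at 61.7 ± 7.60 FPKM. Asz1 at 30.5 ± 3.95, Pld6 at 30.5 ± 3.64 and Henmt1 at 26.7 ± 3.50 FPKM formed a middle range, and Pnldc1 at 6.95 ± 1.24 and Exd1 at 6.16 ± 0.902 FPKM were the least abundant. Of the 9 neighbouring pairs in this order, 3 did not differ beyond their spread within testes (exact two-sided sign-flip permutation test on log2 FPKM over 9 testes, Benjamini-Hochberg over 9 pairs). These were Fkbp6 and Mov10l1 (adjusted p = 0.0653), Asz1 and Pld6 (adjusted p = 0.992), and Pnldc1 and Exd1 (adjusted p = 0.0923). The other 6 pairs had adjusted p-values of 0.00703 or 0.0117. Even Pnldc1, with the fewest reads of the 10 genes, had at least 199 counts in every testis.

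**Figure D1:**
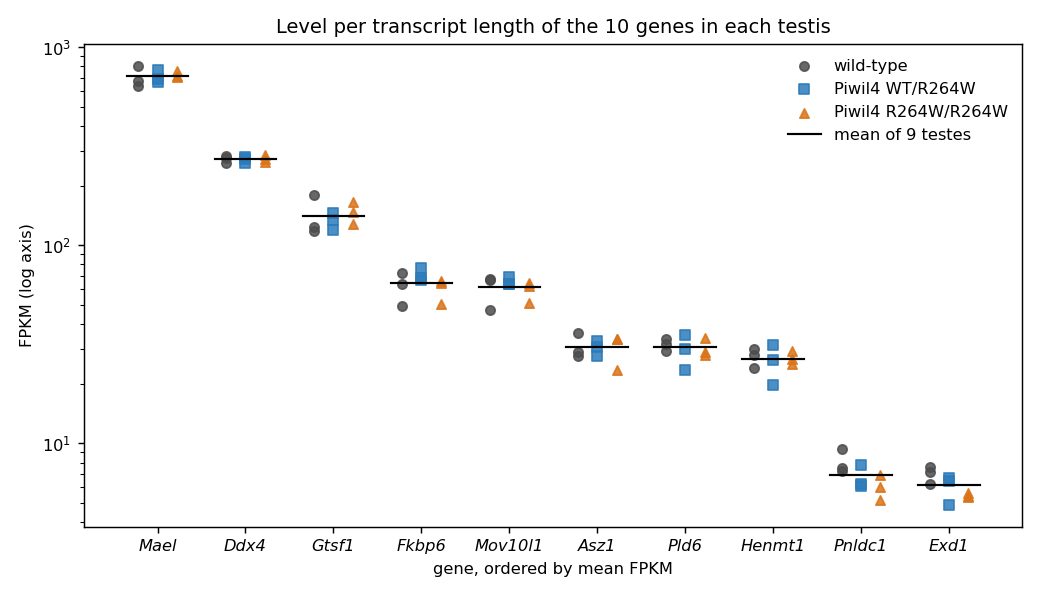
FPKM of the 10 genes in each of 9 testes on a log axis, ordered by mean, with 1 symbol per testis coloured by Piwil4 genotype and a black bar at the mean of 9 testes. Mael at 712 FPKM lies highest and Exd1 at 6.16 FPKM lowest, and the order of the first 3 genes is the same in every testis.

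Among the precursor-processing factors, none passed the test between genotypes. Ddx4, the germ cell helicase known as VASA, had 925, 787 and 825 CPM in the wild-type testes 1 to 3, 857, 836 and 769 CPM in Piwil4 WT/R264W testes, and 867, 827 and 844 CPM in Piwil4 R264W/R264W testes. Replicates keep this order in all values that follow. Its groups overlapped, and the difference of Piwil4 R264W/R264W from wild-type testes had a 95% interval from -0.22 to 0.22 on the log2 scale, the narrowest of the 10 genes. Mov10l1, the helicase that feeds precursors to the cutting machinery, had 208, 265 and 271 CPM in wild-type, 254, 255 and 272 CPM in Piwil4 WT/R264W and 252, 250.2 and 213 CPM in Piwil4 R264W/R264W testes. The lowest values were those of wild-type 1 and Piwil4 R264W/R264W 3, and the Piwil4 R264W/R264W testes all lay below the Piwil4 WT/R264W testes. That difference was -0.12 on the log2 scale (standard error 0.084, adjusted p = 0.948 by edgeR's quasi-likelihood test), and the wild-type testes, from 208 to 271 CPM, took in all but the highest of these 6 values.

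Asz1, an ankyrin-repeat protein that anchors the machinery to mitochondria, had 55.1, 48.3 and 62.6 CPM in wild-type, 46.9, 54.2 and 56.0 CPM in Piwil4 WT/R264W and 58.9, 59.6 and 44.0 CPM in Piwil4 R264W/R264W testes. The lowest and the highest testes came from different genotypes, and all groups overlapped. Pld6, the endonuclease of the outer mitochondrial membrane that cuts precursors, had 30.6, 30.6 and 32.0 CPM in wild-type, 22.7, 34.3 and 28.0 CPM in Piwil4 WT/R264W and 27.6, 32.7 and 28.5 CPM in Piwil4 R264W/R264W testes. Wild-type testes lay close together, at 31.1 ± 0.802 CPM (SD, n = 3), within the wider range of the Piwil4 WT/R264W testes at 28.4 ± 5.83 CPM.

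The enzymes that finish the 3′ end did not pass the test either. Pnldc1, the exonuclease that trims piRNA intermediates, had 14.4, 12.5 and 15.3 CPM in wild-type, 14.3, 11.2 and 12.7 CPM in Piwil4 WT/R264W and 13.0, 12.0 and 11.3 CPM in Piwil4 R264W/R264W testes. Its mean was lowest in Piwil4 R264W/R264W testes, at a log2 difference of -0.22 from wild-type (standard error 0.13, adjusted p = 1.0 by edgeR), the largest of the 10 genes in that comparison, and wild-type 2 lay among the mutant values. Per transcript length Pnldc1 had 7.51, 7.29 and 9.40 FPKM in wild-type and 6.97, 6.03 and 5.18 FPKM in Piwil4 R264W/R264W testes, which did not overlap, and limma gave -0.41 on the log2(FPKM + 0.1) scale (unadjusted p = 0.0496, adjusted p = 1.0) and -0.36 with a pseudocount of 1. Henmt1, the methyltransferase that caps the 3′ end, had 49.8, 38.6 and 45.8 CPM in wild-type, 31.9, 45.6 and 40.1 CPM in Piwil4 WT/R264W and 41.0, 43.1 and 47.2 CPM in Piwil4 R264W/R264W testes. The highest and the lowest testes were wild-type 1 and Piwil4 WT/R264W 1, and the groups overlapped.

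The loading factors and partners of PIWI proteins did not pass the test between genotypes. Fkbp6, a co-chaperone that works with HSP90 in loading, had 72.9, 87.5 and 98.1 CPM in wild-type, 91.6, 95.3 and 103 CPM in Piwil4 WT/R264W and 90.7, 88.2 and 74.0 CPM in Piwil4 R264W/R264W testes. As for Mov10l1, wild-type 1 and Piwil4 R264W/R264W 3 were lowest and the 3 Piwil4 R264W/R264W testes lay below the 3 Piwil4 WT/R264W testes, at a log2 difference of -0.19 (standard error 0.098, adjusted p = 0.948 by edgeR). Exd1, a partner of TDRD12 that aids the loading of PIWIL4, had 37.1, 36.5 and 40.9 CPM in wild-type, 28.6, 35.9 and 37.5 CPM in Piwil4 WT/R264W and 32.0, 33.1 and 36.5 CPM in Piwil4 R264W/R264W testes. In CPM the groups of Exd1 overlapped. Per transcript length it had 7.14, 6.24 and 7.63 FPKM in wild-type and 5.42, 5.38 and 5.62 FPKM in Piwil4 R264W/R264W testes, which did not overlap on that scale. The FPKM difference was -0.35 on the log2(FPKM + 0.1) scale and had an unadjusted p of 0.0351 but an adjusted p of 1.0 by limma.

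Gtsf1, a small zinc finger protein that speeds target cleavage by PIWI proteins, had 154, 99.4 and 94.4 CPM in wild-type, 109, 119 and 93.0 CPM in Piwil4 WT/R264W and 104, 119 and 139.6 CPM in Piwil4 R264W/R264W testes. Wild-type 1 and Piwil4 R264W/R264W 3 were the highest of the 9, the reverse of their place in Mov10l1 and Fkbp6. Mael had 1364, 999 and 1044 CPM in wild-type, 1084, 1224 and 1008 CPM in Piwil4 WT/R264W and 1109.8, 1116 and 1260.4 CPM in Piwil4 R264W/R264W testes. The same testes led here too, and no genotype stood apart from another. Between wild-type testes alone, Gtsf1 varied 1.64-fold and Mael 1.37-fold.

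**Figure D2:**
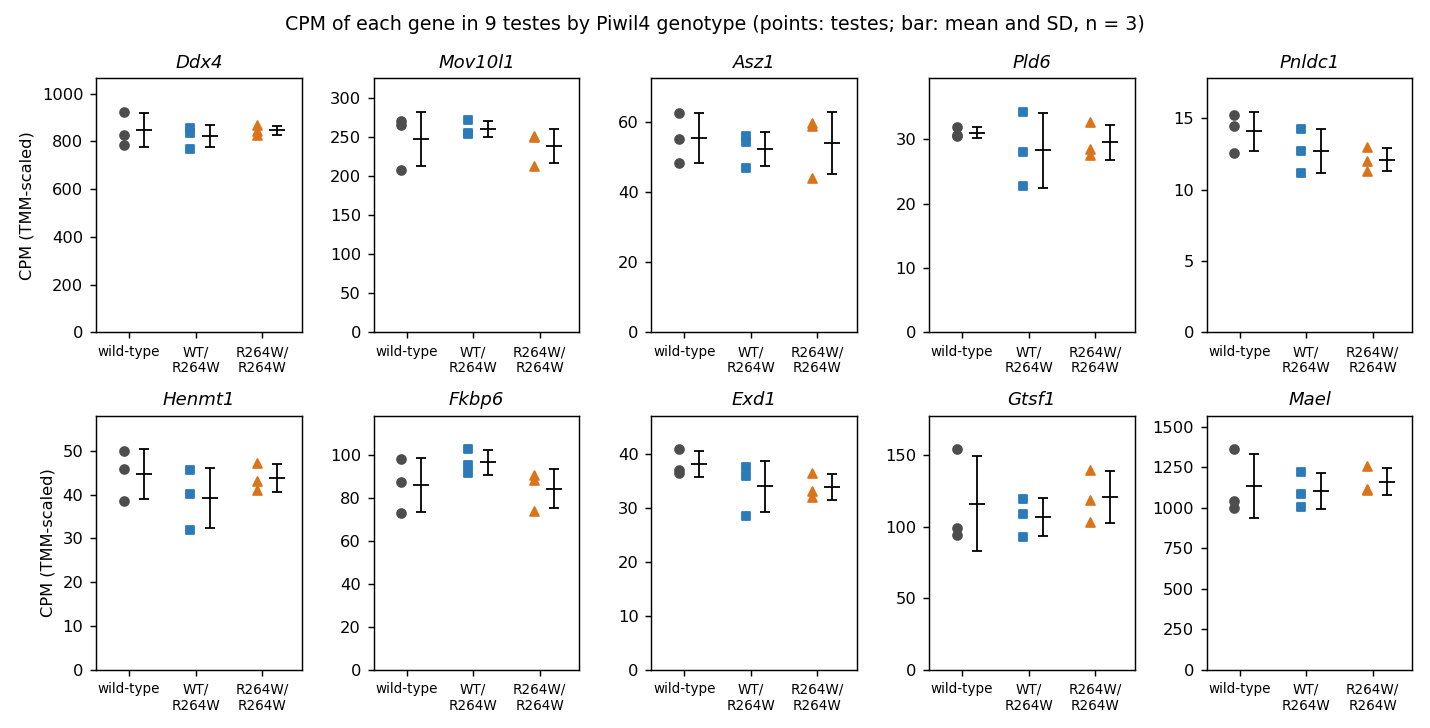
CPM of each of the 10 genes by Piwil4 genotype, with 1 symbol per testis and a bar for the mean and SD of 3 testes, on axes that start at 0. Wild-type testes overlap both other genotypes in every panel, and the widest relative spread within a genotype is that of Gtsf1 in wild-type testes, from 94.4 to 154 CPM (1.64-fold).

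Over all 3 genotype comparisons, edgeR called none of the 10 genes at an adjusted p under 0.05 and gave none an unadjusted p under 0.05. In Piwil4 R264W/R264W against wild-type testes, edgeR called 0 of 15543 genes (0.0%) and gave 196 an unadjusted p under 0.05 (1.26%), while DESeq2 called 2 genes and limma called 0. The log2 fold changes of the 10 genes ran from -0.22 to 0.05 with a median of -0.03, beside a median of -0.01 over all genes, and 2 of the 10 were above 0. Against Piwil4 WT/R264W testes, edgeR called 0 of 15463 genes (0.0%) and gave 343 an unadjusted p under 0.05 (2.22%), while DESeq2 called 6 and limma 0. Here the 10 genes ran from -0.19 to 0.18 with a median of 0.05, beside 0.01 over all genes. In Piwil4 WT/R264W against wild-type testes, edgeR called 0 of 15413 genes (0.0%) and gave 171 an unadjusted p under 0.05 (1.11%), while DESeq2 and limma called 0, and the 10 genes ran from -0.20 to 0.16 with a median of -0.11, beside -0.02 over all genes.

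The groups failed to overlap in CPM for 0 of the 10 genes in Piwil4 R264W/R264W against wild-type testes, where 5.59% of all genes did so, and for 0 of the 10 in Piwil4 WT/R264W against wild-type testes, where 5.37% did so. When Piwil4 R264W/R264W testes were set against Piwil4 WT/R264W testes, Mov10l1 and Fkbp6 did not overlap, 2 of 10 beside 7.06% of all genes, and both were lower in Piwil4 R264W/R264W testes. On the FPKM scale, a count added after the data were seen, the groups did not overlap for 2 of the 10 genes in Piwil4 R264W/R264W against wild-type testes (Pnldc1 and Exd1, both lower, beside 4.32% of genes). They did not overlap for 1 of 10 against Piwil4 WT/R264W testes (Fkbp6, lower, beside 6.66%) and for 0 of 10 in Piwil4 WT/R264W against wild-type testes (4.45%), so that Mov10l1 did overlap on that scale. For Mov10l1 and Fkbp6 in CPM, the exact two-sided permutation test gave p = 0.1 for each, the smallest that 3 against 3 testes allow. Mov10l1 and Fkbp6 also fell with the spermatid score. Its mean was 4.25 (SD 1.67, n = 3) in Piwil4 R264W/R264W and 3.37 (SD 2.15, n = 3) in Piwil4 WT/R264W testes. With the score as a covariate over all 9 testes, the log2 difference was -0.08 for Mov10l1 and -0.14 for Fkbp6 (adjusted p = 1.0 for both by edgeR), against -0.13 and -0.19 in the same fit without it. Whether the score accounts for the lower levels of Mov10l1 and Fkbp6 was not tested. The 95% intervals bound what these testes could have shown. In Piwil4 R264W/R264W against wild-type testes the widest, that of Gtsf1, ran from -0.47 to 0.57 on the log2 scale, and no interval of the 10 genes in any comparison reached a change of 2-fold.

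**Figure D3:**
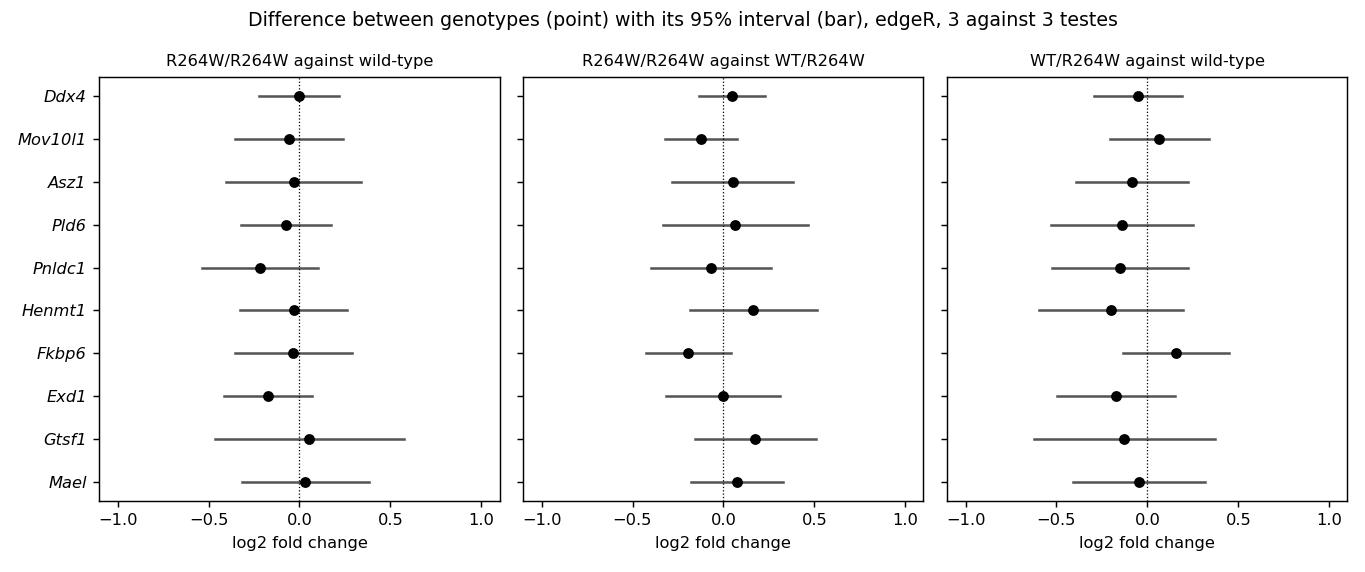
Log2 fold change of each gene (point) with its 95% interval (bar) in the 3 genotype comparisons, from edgeR with 3 against 3 testes. All 30 intervals include 0, and they lie between -0.62 and 0.57.

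Across the 9 testes the level of 4 of the 10 genes changed with the round spermatid score, which follows how far the first wave has come. The slope of each gene on the round spermatid score was fitted with a genotype term by edgeR over all 9 testes. Gtsf1 and Mael rose with the score, 2 of 10 genes beside 17.6% of the 15771 genes tested, and Fkbp6 and Mov10l1 fell, 2 of 10 beside 8.5%. The median slope of the 10 was -0.01 log2 units per unit of score, as over all genes (-0.01). Over all genes 2773 rose and 1340 fell on the count scale, whereas limma on log2(FPKM + 0.1) gave 2103 that rose and 2566 that fell.

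Gtsf1 rose by 0.12 log2 units per unit of score (standard error 0.022, adjusted p = 0.00122 by edgeR). Over the range of 5.17 units between the least advanced testis, Piwil4 WT/R264W 3, and the most advanced, wild-type 1, this slope amounts to 1.55-fold. Mael rose by 0.068 per unit (standard error 0.020, adjusted p = 0.0246), or 1.28-fold over that range. Wild-type 1 and Piwil4 R264W/R264W 3, with scores of 6.20 and 6.03, held the highest levels of both genes. Fkbp6 fell by 0.072 per unit (standard error 0.018, adjusted p = 0.0110), or 1.29-fold over the range, and Mov10l1 fell by 0.061 per unit (standard error 0.017, adjusted p = 0.0203), or 1.25-fold. The same testes were lowest in these genes, and Piwil4 WT/R264W 3, with a score of 1.03, was highest in both.

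Within each genotype the testes of the highest and the lowest score can be set side by side, although they are among those that set the slopes. For Gtsf1 the log2 difference, highest less lowest, was 0.71 in wild-type, 0.22 in Piwil4 WT/R264W and 0.43 in Piwil4 R264W/R264W testes, and for Mael it was 0.39, 0.11 and 0.18. For Fkbp6 it was -0.43, -0.17 and -0.29, and for Mov10l1 -0.38, -0.10 and -0.24. Each of these values rests on 1 pair of testes. Whether slopes differed by genotype was tested with an interaction term, by which 0 of the 10 genes were called, beside 1 of 15771 genes (0.00634%). No member had an unadjusted p under 0.05 by edgeR, beside 2.1% of genes, and the smallest was 0.161 for Exd1. DESeq2 called 1 gene of all genes and limma 0.

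Of the remaining genes, Asz1 had a slope of -0.055 per unit of score (95% interval -0.11 to 0.0037, adjusted p = 0.151 by edgeR) and a negative difference in all 3 genotypes. Ddx4 had a slope of 0.031 (95% interval -0.0036 to 0.066, adjusted p = 0.168). The interval of Asz1 took in the slope of Mov10l1, and that of Ddx4 ended just under the slope of Mael. Exd1 (-0.025, adjusted p = 0.503), Pld6 (-0.018, adjusted p = 0.715), Henmt1 (0.016, adjusted p = 0.735) and Pnldc1 (-0.0021, adjusted p = 0.970) also missed the threshold, and the difference between the testes of highest and lowest score had opposite signs among the genotypes. Piwil4 WT/R264W 1, the third most advanced testis with a score of 5.25, had the lowest Pld6, Henmt1 and Exd1 levels of the 9.

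The calls depended on few testes. Calls over all genes changed as well. They ran from 1053 to 6226 genes over all 19 alternatives to this fit, beside 4113 of 15771 in the fit itself. Without wild-type 1, wild-type 3 or Piwil4 R264W/R264W 3, Gtsf1 alone was called (adjusted p = 0.0470, 0.0116 and 0.0075), and without both Piwil4 WT/R264W 3 and wild-type 1 none of the 10 was called, at slopes of 0.094 for Gtsf1, 0.025 for Mael, -0.087 for Fkbp6 and -0.058 for Mov10l1. Leaving out Piwil4 WT/R264W 3 alone ended the call of Mael (adjusted p = 0.0849), as did leaving out Piwil4 R264W/R264W 1 (adjusted p = 0.0543), at slopes of 0.069 and 0.070. When testes were left out 1 at a time, the slope of Fkbp6 stayed between -0.091 and -0.062, that of Mov10l1 between -0.082 and -0.041, that of Gtsf1 between 0.089 and 0.15 and that of Mael between 0.041 and 0.086. The smallest size of all 4 slopes was that without wild-type 1.

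**Figure D4:**
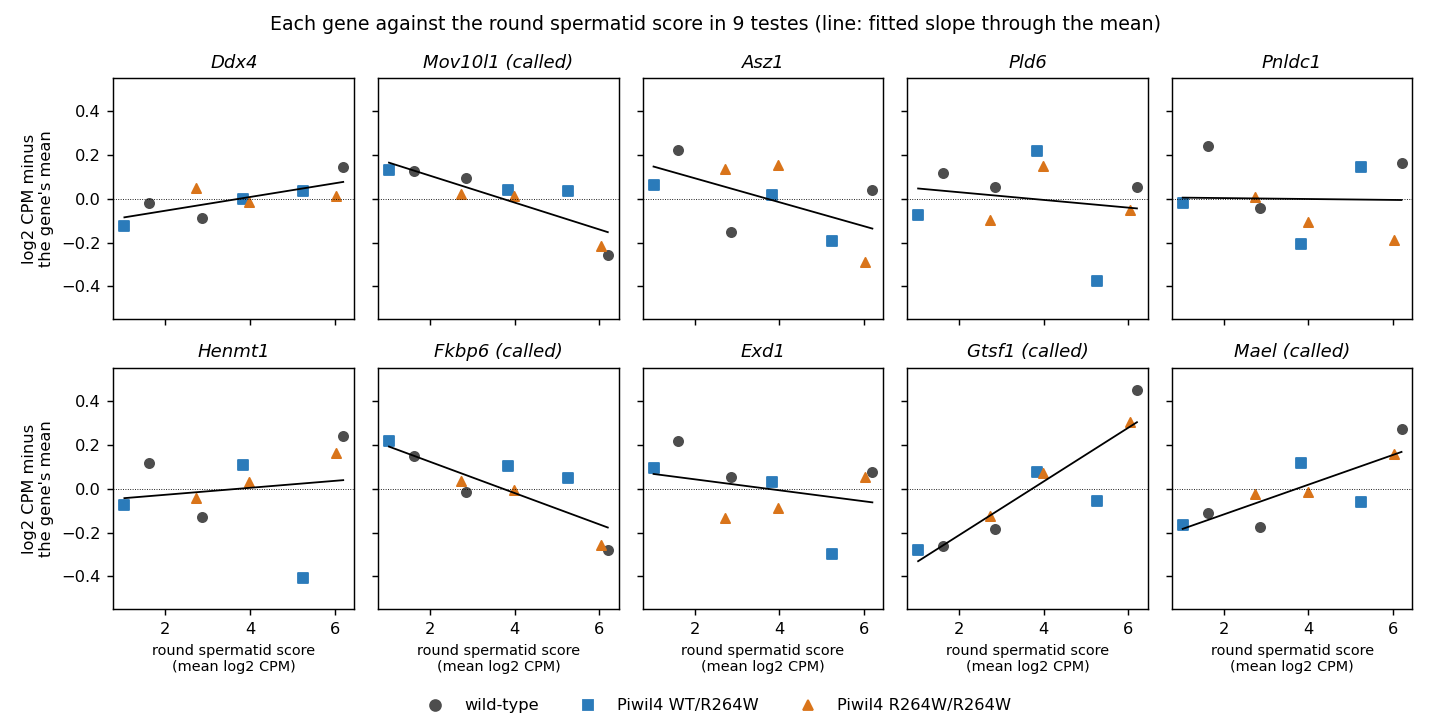
Log2 CPM of each gene, less its mean over 9 testes, against the round spermatid score (mean log2 CPM of 16 genes), with 1 symbol per testis coloured by genotype and the fitted slope drawn through the mean. Gtsf1 and Mael rise to the right and Mov10l1 and Fkbp6 fall, and the fitted change of Gtsf1 over the score range is 1.55-fold.

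Some markers of other germ cell stages and of other cell types changed with the score as well, while 17.6% of all genes rose and 8.5% fell. Of the pachytene spermatocyte markers 8 of 11 rose and none fell, and of the early meiotic prophase markers 6 of 10 fell and none rose, with list means on the log2 CPM scale from 6.33 to 6.91 over the 9 testes. Of 10 Sertoli cell markers 3 fell, and the list mean lay between 5.76 and 6.34 among wild-type testes, 6.12 and 6.34 among Piwil4 WT/R264W testes, and 5.996 and 6.18 among Piwil4 R264W/R264W testes. The Leydig list had 2 of 7 genes that rose, and its mean ran from 4.38 to 5.70, 4.30 to 5.05 and 4.87 to 5.78 in the 3 genotypes. Of 11 spermatogonial markers tested, 1 rose and 2 fell. Of 5 macrophage markers 1 rose, and none of 4 peritubular myoid and 4 endothelial markers was called. No Sertoli or Leydig marker was at 0 in any testis, and the part of these cell types in the slopes was not tested. With the pachytene score in place of the spermatid score, the same 4 of 10 genes were called in the same directions. This is no separate test. Wild-type 1 and Piwil4 R264W/R264W 3 were highest in both scores and Piwil4 WT/R264W 3 was lowest in both.

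Of 22 other genes of the pathway, 5 rose and 2 fell with the spermatid score, with a median slope of -0.02. Over all genes tested 17.6% rose and 8.5% fell. In the genotype comparisons edgeR called 0 of the 22, and 1 had an unadjusted p under 0.05, in Piwil4 R264W/R264W against Piwil4 WT/R264W testes. In that comparison 2.22% of all genes did so. Gtsf1l, a paralog of Gtsf1, had 94.5, 16.3 and 8.25 CPM in wild-type, 61.1, 34.7 and 6.89 CPM in Piwil4 WT/R264W and 17.7, 32.0 and 82.9 CPM in Piwil4 R264W/R264W testes. Its slope was 0.74 (standard error 0.025, adjusted p = 2.14e-10 by edgeR), so that its level followed the order of the scores within every genotype. Dnmt3l, the cofactor of de novo DNA methylation, had a slope of 0.57 (adjusted p = 4.19e-05) at 0.526 to 4.72 CPM, and the granule protein gene Tdrd6 had 0.10 (adjusted p = 0.00301). Tdrd7 and Tcfl5 also rose, and the PIWI protein gene Piwil2 fell by 0.056 and Mybl1, a transcription factor gene of pachytene cells, by 0.060 (adjusted p = 0.0360 and 0.0311).

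The smallest slopes among the 22 were those of Btbd18 (-0.081, adjusted p = 0.0639 by edgeR), Morc1 (-0.065, adjusted p = 0.150) and Tex19.1 (-0.063, adjusted p = 0.107), none of which was called. Piwil4, the gene that carries the knock-in, had 1.76, 1.67 and 1.59 CPM in wild-type, 2.06, 1.12 and 2.10 CPM in Piwil4 WT/R264W and 1.39, 1.18 and 1.02 CPM in Piwil4 R264W/R264W testes. All Piwil4 R264W/R264W testes lay below all wild-type testes, in a comparison where groups did not overlap for 5.59% of all genes. The log2 difference was -0.48 (95% interval -1.03 to 0.073, unadjusted p = 0.0784 by edgeR), and Piwil4 was not called. Against Piwil4 WT/R264W testes the groups overlapped, at a log2 difference of -0.55 (95% interval -1.31 to 0.21). A count per gene cannot tell the alleles of Piwil4 apart, and the genotypes were taken from the labels alone. Its slope on the score was -0.024 (95% interval -0.18 to 0.13, adjusted p = 0.831).

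Among 11 relatives of these enzymes that work outside the pathway, 0 rose and 1 fell, beside 17.6% and 8.5% of all genes. Exd2, a relative of Exd1 in DNA repair, fell by 0.063 per unit (adjusted p = 0.0151 by edgeR), whereas Exd1 itself had a slope of -0.025 that was not called. Mov10, the relative of Mov10l1, had a slope of -0.054 (adjusted p = 0.349), close in size to that of Mov10l1 but with a standard error of 0.041 against 0.017. Parn, a poly(A) ribonuclease related to Pnldc1, had -0.055 (adjusted p = 0.121), and the helicase gene Ddx3x had -0.063 (adjusted p = 0.110) beside 0.031 for Ddx4. The FKBP family members Fkbp4, Fkbp5 and Fkbp8 had slopes from -0.014 to 0.034, none of them called, beside -0.072 for Fkbp6. Differences in slope between relatives were not tested.

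**Figure D5:**
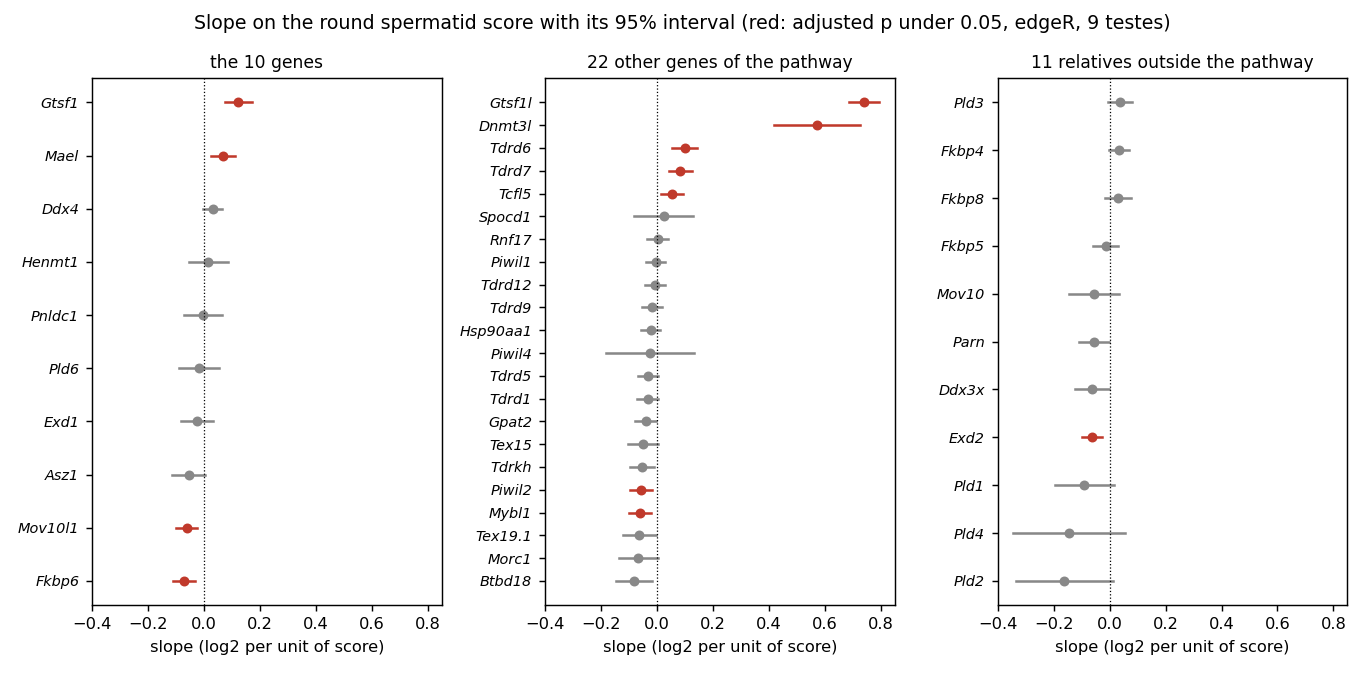
Slope on the round spermatid score in log2 units per unit of score (point) with its 95% interval (bar) for the 10 genes, 22 other genes of the pathway and 11 relatives outside it, in red where the adjusted p was under 0.05. Gtsf1l (0.74) and Dnmt3l (0.57) lie far to the right of all others, and the 10 genes lie between -0.072 and 0.12.

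The coefficient of variation of the 10 genes over the 9 testes had a median of 11.1%, beside 14.3% over all genes tested, and ran from 5.42% for Ddx4 to 18.3% for Gtsf1. The sets were not matched for level. The genes whose course over the 9 testes was most like that of Gtsf1, by the root mean square difference of mean-centred log2 CPM, were 4930453N24Rik (0.0423), Ssmem1 (0.0428) and Fbxw10 (0.0487). For Fkbp6 they were Nifk (0.0337), Chmp7 (0.0418) and Fbh1 (0.0460). These genes were picked as the closest of all genes tested, so small differences follow from the choice. From the lowest to the highest testis Gtsf1 ranged 1.66-fold and Fkbp6 1.41-fold.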

How the data were processed

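The authors sequenced 9 whole mouse testes at 3 weeks of age as mRNA libraries with paired-end reads. Reads were filtered with fastp (version 0.18.0) and mapped reads assembled with StringTie (version 1.3.1). The submitters' processing notes name the genome build mm39 and DESeq2. The aligner, the counting tool and its use of strand are not given in the sources used here. The authors deposited, per gene and testis, an FPKM value and an estimated count without scaling for depth, of which 89.17% were whole numbers. Groups came from the sample labels.

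Counts were rounded. In R (version 4.3.3), edgeR (version 4.0.16) with filterByExpr, TMM scaling, the quasi-likelihood test and Benjamini-Hochberg adjustment over all genes tested was fitted to each pair of genotypes, and to all 9 testes with a genotype term and the round spermatid score (mean log2 CPM, prior count 1). The fits were tested on simulated data. CPM are TMM-scaled. Results were recomputed with limma (version 3.58.1) on log2(FPKM + 0.1) or log2(FPKM + 1), keeping a mean FPKM of 0.5 or more, with DESeq2 (version 1.42.0), with edgeR under size factors of DESeq2, with other filters, a replicate block, the pachytene score, and each testis left out. Floors cover counting error only.

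All 10 genes were described. Of 22 other pathway genes those with the 3 largest and 3 smallest slopes and Piwil4 were to be named, of the relatives the nearest, and the 3 genes most like the members with the largest and the smallest slope. Tdrd7, Tcfl5, Piwil2 and Mybl1 were named after their values were seen. The genes, lists and tests were chosen with earlier results of these data known. Coordinates are of GRCm38 (GENCODE), which holds 22232 of the 22337 gene identifiers, and no coordinate was taken from the deposited table. Same-numbered testes did not vary together throughout: in 9 pairs the correlation of their deviations from the genotype means ran from -0.852 to 0.898, and 3 were over 0.1. This cannot show whether same-numbered testes shared a litter or a batch.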

Additional observations from a re-analysis of the deposited data

How the results depend on the processing

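In the 3 genotype comparisons none of the 10 genes was called under any of 16 alternatives each, with smallest adjusted p-values of 0.624, 0.641 and 0.897, while 29, 19 and 10 of 160 values each changed sign. On the spermatid score, 4 of 10 genes were called, and the count was 2 with a replicate block (Gtsf1 and Fkbp6), 0 without the 2 testes farthest from the median score, and 1 to 4 when each testis was left out. Gtsf1, Fkbp6, Mov10l1 and Mael were called in 18, 15, 14 and 10 of 19 alternatives, and their slopes kept their sign in all 19. Over all genes, 1053 to 6226 were called among these 19 alternatives, beside 4113 of 15771 in the main fit. Limma on FPKM did not call Mael (adjusted p = 0.102). The cause of these differences was not tested, and the fits that leave testes out also hold fewer testes. Slopes differing by genotype were called for 0 of the 10 genes in all alternatives. The replicate block changed no call between genotypes. With 3 testes per genotype, the exact permutation test cannot pass 0.05.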
